A study of Mus musculus with 3 samples.

Results

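The genes described here encode the non-collagen backbone of the vascular basement membrane: 4 laminin alpha chains (Lama1, Lama2, Lama4, Lama5), 2 beta chains (Lamb1, Lamb2), the gamma 1 chain (Lamc1), the nidogens (Nid1, Nid2) and perlecan (Hspg2). They were taken as a listed set of 10 genes, out of 29775 genes with a matched transcript, and all 10 were measured in all 3 libraries. RNA was sequenced from brain vessels of 3-month-old mice, with 1 library per group. In the first group, hGFAP-Cre/Cx43fl/fl, the connexin 43 gene Gja1 was deleted with Cre driven by a human GFAP promoter, in mice of mixed C57BL6-BALB/c background; this promoter is active in astrocytes and, as is known of it, in the radial glia from which other neural cells also arise. The second group was WT C57BL6-BALB/c and the third WT C57BL6, so the Cx43-deleted library shares its background with the second group and not with the third.

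A basement membrane is a thin sheet of matrix that surrounds vessels. Laminins are its main self-assembling polymer: an alpha, a beta and a gamma chain join into a cross-shaped trimer that binds integrins and dystroglycan on cells. Nidogens and perlecan, a heparan sulphate proteoglycan, tie the laminin sheet to the type IV collagen network. In brain vessels, endothelial cells are known mainly for the alpha 4 and alpha 5 chains, while the outer sheet beneath the astrocyte endfeet is known for alpha 1, from leptomeningeal cells, and alpha 2, from astrocytes.

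The link between laminin and nidogen is a short site in the gamma 1 chain, shown here because Lamc1 and Nid1, on the 2 sides of that link, were among the members furthest below the background-matched WT library. Among the main transcripts of the 10 members, the site's codons were found in 1, that of Lamc1, in exon 14 of 28 at chr1:153243361-153243381 on the minus strand (GRCm38). The transcript sequence from GENCODE M21 is given 5′ to 3′, with the 21 bases that encode the site in capitals and 42 bases on either side.
Lamc1: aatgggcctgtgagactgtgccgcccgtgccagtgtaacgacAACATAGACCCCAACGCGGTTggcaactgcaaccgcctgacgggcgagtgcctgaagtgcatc

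Promoter windows of 250 bases before the RefSeq start (GRCm38.p6) were at hand for 6 of the 10 members: Lama2, Lama5, Lamb1, Lamb2, Nid1 and Hspg2. Lama5 and Hspg2 are shown since their ratios between the libraries were nearly alike, and Lamb2 since it had the highest level per length. Each ends where the GENCODE M21 gene begins, and capitals mark the GC box GGGCGG on either strand. The Lama5 stretch is chr2:180225860-180226109 on the minus strand, that of Hspg2 chr4:137468553-137468768 on the plus strand, and that of Lamb2 chr9:108479612-108479735 on the plus strand.
Lama5: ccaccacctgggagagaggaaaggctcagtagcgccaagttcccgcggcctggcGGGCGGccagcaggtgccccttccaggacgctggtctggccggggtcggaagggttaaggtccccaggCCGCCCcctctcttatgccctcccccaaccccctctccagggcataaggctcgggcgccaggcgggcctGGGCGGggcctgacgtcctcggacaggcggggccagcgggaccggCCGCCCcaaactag
Hspg2: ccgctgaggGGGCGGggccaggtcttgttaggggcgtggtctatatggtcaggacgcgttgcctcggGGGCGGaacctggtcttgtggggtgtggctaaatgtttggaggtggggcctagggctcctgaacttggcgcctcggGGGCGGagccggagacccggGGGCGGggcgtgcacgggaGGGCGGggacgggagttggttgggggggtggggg
Lamb2: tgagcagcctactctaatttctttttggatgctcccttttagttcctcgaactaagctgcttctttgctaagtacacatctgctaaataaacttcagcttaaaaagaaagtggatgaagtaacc

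The GC box was found 4 times in the Lama5 window, 5 times in that of Hspg2, 2 times in Lamb1, 1 time in Nid1 and 0 times in Lama2 and Lamb2. Not all of these windows lie outside the GENCODE M21 gene. Of the 250 bases, those before the gene were 250 for Lama5, 216 for Hspg2, 199 for Nid1, 191 for Lamb1 and 124 for Lamb2. For Lama2 it was 0, so all counts for Lama2 are of bases within the GENCODE M21 gene. Among the 32851 promoter windows of the same length in the table, 32.7% held at least 1. The AP-1 motif TGANTCA was in 0 of the 6 windows and in 6.75% of all windows, and the TATA box TATAAA was in 0 of the 6 and in 12.4% of all, on either strand. The number of CpG in the window was 19 for Lama5, 20 for Hspg2, 16 for Nid1, 14 for Lamb1, 3 for Lamb2 and 0 for Lama2, where the median of all windows was 6.

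Gja1 itself had 2574 reads in the Cx43-deleted library, against 4276 in WT C57BL6-BALB/c vessels and 5138 in WT C57BL6, and was 4.20-fold (4.001 to 4.41) lower than in WT C57BL6-BALB/c and 4.21-fold (4.02 to 4.42) lower than in WT C57BL6. The library totals were 54975610 for Cx43-deleted vessels, 21170766 for WT C57BL6-BALB/c vessels and 24830975 for WT C57BL6 vessels. They were derived from the deposited counts and fractions, and may not be all reads sequenced. As each group is 1 library, groups could not be tested against each other and no p-value is given. Folds are those of the reads on a gene's main transcript, with exact binomial 95% intervals that cover counting error only and not the difference between animals. Levels are normalised counts (CPM), scaled with TMM factors and added up over each gene's transcripts, and levels of different genes are compared only per kilobase of transcript. Gene positions are those of GENCODE M21 (GRCm38).

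With TMM scaling, 9 of the 10 members had a lower level in the Cx43-deleted library than in both WT libraries and 0 a higher level than both. When the libraries were scaled to their endothelial markers instead, 1 member, Lama4, was below both, and Lama1, Lamb1 and Nid2 were above both. Over the 16594 genes that reached a level of 1 somewhere, 35.6% were under both WT libraries and 33.2% over both with TMM scaling. Scaled to the endothelial markers, 4.73% were under both, and the share over both is not given here. At 1.5-fold or more below both there were 0 of 10, against 2.19% of all genes, and 0 of 10 at 2-fold or more, against 0.38%; with shares this small over all genes, a count of 0 of 10 is near the background. The median log2 ratio of the members was −0.17 to WT C57BL6-BALB/c and −0.50 to WT C57BL6, where the medians of all genes were 0.00 and −0.03 for these comparisons. Apart from the pseudocount, scaling to the endothelial markers shifts all genes alike. The members' medians became −0.03 to WT C57BL6-BALB/c and 0.31 to WT C57BL6, and those of all genes 0.14 and 0.74. The members' medians thus stayed below those of all genes, by a similar gap. In bulk vessel RNA, fewer cells of a type and less RNA per cell cannot be told apart.

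**Figure D1:**
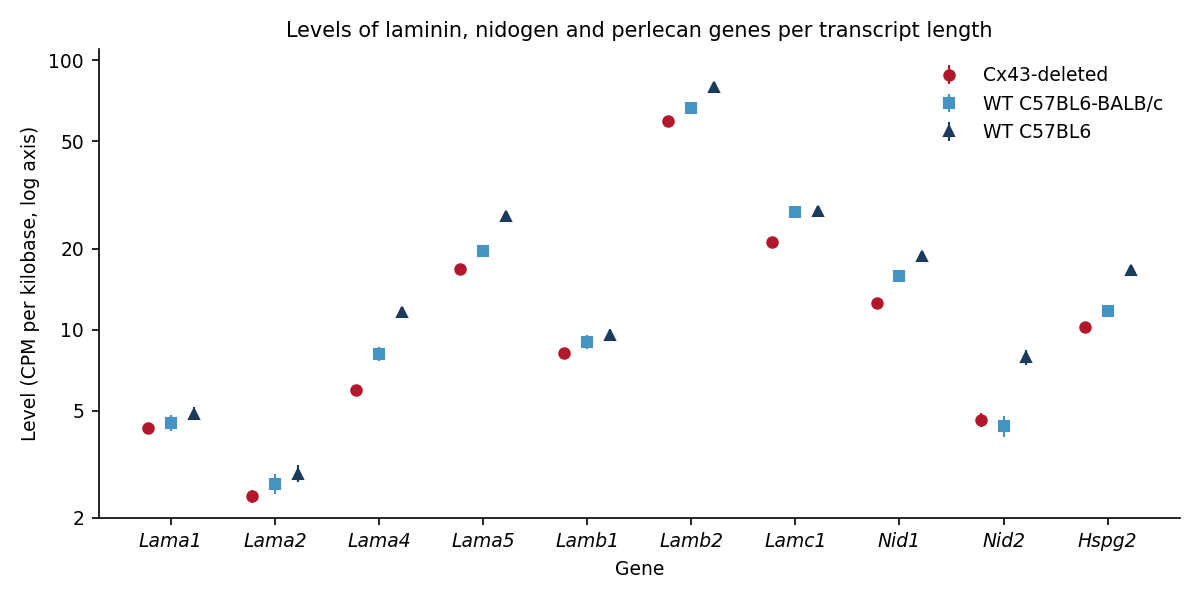
Level of each gene (CPM of the main transcript per kilobase, log axis) in the Cx43-deleted (circle), WT C57BL6-BALB/c (square) and WT C57BL6 (triangle) libraries; bars are exact Poisson 95% intervals of the reads. Lamb2 stands highest in each library and Lama2 lowest, and with this TMM scaling the triangle is the highest of the 3 for every gene; scaled to the endothelial markers, the Cx43-deleted library is below both WT libraries for Lama4 alone.

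Per length, Lamb2 was the most abundant member in each library, at 59.7 CPM per kilobase in Cx43-deleted vessels, 66.3 in WT C57BL6-BALB/c vessels and 79.7 in WT C57BL6. Lama2 was the least abundant, at 2.41 CPM per kilobase in Cx43-deleted vessels, 2.67 in WT C57BL6-BALB/c vessels and 2.92 in WT C57BL6. The range from highest to lowest was 24.8-fold in Cx43-deleted vessels, 24.8-fold in WT C57BL6-BALB/c vessels and 27.3-fold in WT C57BL6. Below Lamb2 came Lamc1 and Lama5, then Nid1 and Hspg2, in the same order in each library. The intervals of neighbours in the order overlapped for Nid2 and Lama1 in the Cx43-deleted library, for Lamb1 with Lama4 and Lama1 with Nid2 in WT C57BL6-BALB/c, and for Lamc1 with Lama5 in WT C57BL6. Lama4 stood below Lamb1 in the Cx43-deleted library, at 5.95 against 8.22 CPM per kilobase, and above it in WT C57BL6, at 11.6 against 9.55.

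Among the alpha chains, Lama4 differed most with TMM scaling. Lama4 (ENSMUSG00000019846, chr10:38965515-39110188, plus strand) encodes the alpha 4 chain of endothelial laminin, and had 1907 reads in Cx43-deleted vessels, 1032 in WT C57BL6-BALB/c vessels and 1764 in WT C57BL6. Its level was 35.5 CPM in Cx43-deleted vessels, 48.7 in WT C57BL6-BALB/c vessels and 69.4 in WT C57BL6. The Cx43-deleted library was the lowest and WT C57BL6 the highest. It was 1.37-fold (1.27 to 1.48) lower than WT C57BL6-BALB/c and 1.95-fold (1.83 to 2.08) lower than WT C57BL6, with log2 ratios of −0.45 to WT C57BL6-BALB/c and −0.96 to WT C57BL6, the lowest of the 10 members in both comparisons. WT C57BL6-BALB/c was in turn 1.43-fold (1.32 to 1.54) lower than WT C57BL6. Scaled to the endothelial markers, Lama4 was still below both WT libraries, by log2 ratios of −0.31 to WT C57BL6-BALB/c and −0.15 to WT C57BL6.

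Lama5 (ENSMUSG00000015647, chr2:180176373-180225859, minus strand) encodes the alpha 5 chain, the other endothelial laminin chain and a strong integrin ligand. Its main transcript had 10297 reads in Cx43-deleted vessels, 4719 in WT C57BL6-BALB/c vessels and 7661 in WT C57BL6, and the level of the gene was 261 CPM in Cx43-deleted vessels, 300.4 in WT C57BL6-BALB/c vessels and 423 in WT C57BL6. The Cx43-deleted library was again the lowest with TMM scaling. It was 1.16-fold (1.12 to 1.20) lower than WT C57BL6-BALB/c and 1.57-fold (1.52 to 1.62) lower than WT C57BL6. Besides the coding transcript, 3 short processed transcripts of Lama5 were counted. Those of 734 and 478 bases were 1.20-fold (1.09 to 1.32) and 1.18-fold (1.07 to 1.30) lower than in WT C57BL6-BALB/c, while for that of 451 bases the interval spanned 1, at 0.983 (0.878 to 1.10) on the same scale. As a read counts on several transcripts, reads on them may also have been counted on the coding transcript. Such reads enter the level of the gene more than once.

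With TMM scaling Lama1 and Lama2, the alpha chains known from the outer, parenchymal sheet, differed least among the alpha chains. Scaled to the endothelial markers, they differed most from WT C57BL6. The log2 ratios were then 0.63 for Lama1 and 0.52 for Lama2, against 0.12 for Lama5 and −0.15 for Lama4. Between the WT libraries they were 0.55 for Lama1, 0.54 for Lama2, 0.18 for Lama5 and 0.16 for Lama4. To WT C57BL6-BALB/c they were 0.076 for Lama1, −0.012 for Lama2, −0.064 for Lama5 and −0.31 for Lama4. Lama1 (ENSMUSG00000032796, chr17:67697259-67822647, plus strand) had 2203 reads in Cx43-deleted vessels, 909 in WT C57BL6-BALB/c vessels and 1179 in WT C57BL6, and its level was 41.1 CPM in Cx43-deleted vessels, 42.9 in WT C57BL6-BALB/c vessels and 46.4 in WT C57BL6. With TMM scaling the 3 libraries lay close together. Its fold to WT C57BL6-BALB/c, 1.04 lower, had an interval that spanned 1 (0.965 to 1.13), and it was 1.13-fold (1.05 to 1.21) lower than WT C57BL6. Lama2 (ENSMUSG00000019899, chr10:26980036-27619758, minus strand), the chain whose loss causes a congenital muscular dystrophy, had 1253 reads in Cx43-deleted vessels, 550 in WT C57BL6-BALB/c vessels and 720 in WT C57BL6, and a level of 23.4 CPM in Cx43-deleted vessels, 25.9 in WT C57BL6-BALB/c vessels and 28.3 in WT C57BL6. The order of the libraries was that of Lama1, and Lama2 was 1.11-fold (1.003 to 1.23) lower than in WT C57BL6-BALB/c and 1.21-fold (1.11 to 1.33) lower than in WT C57BL6. These were also the members with the most bases without a read: for Lama2 1180 of 9710 bases in Cx43-deleted vessels, 2331 in WT C57BL6-BALB/c vessels and 2316 in WT C57BL6, and for Lama1, of 9518 bases, 531 in Cx43-deleted vessels, 1673 in WT C57BL6-BALB/c vessels and 1575 in WT C57BL6. Over the 10 members, the share of bases without a read ranged from 0.0181% (Lamb2) to 12.2% (Lama2) in the Cx43-deleted library, which had the largest library total. The share reached 24.0% in WT C57BL6-BALB/c vessels and 23.9% in WT C57BL6, both for Lama2. Lama2 and Lama4 lie on chromosome 10, 28.8 and 17.3 megabases before Gja1.

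**Figure D2:**
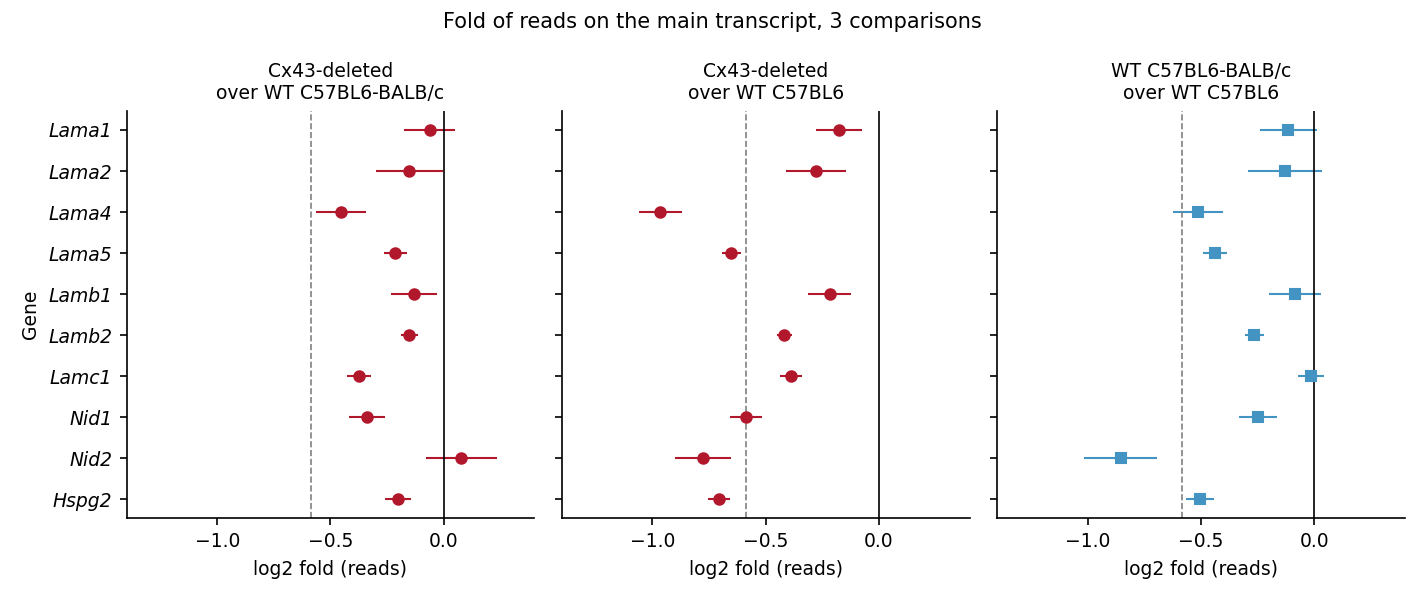
Log2 fold of the reads on the main transcript of each gene for Cx43-deleted over WT C57BL6-BALB/c (left), Cx43-deleted over WT C57BL6 (middle) and WT C57BL6-BALB/c over WT C57BL6 (right), with exact binomial 95% intervals (counting error only); the dashed line is 1.5-fold lower. With TMM scaling 9 of 10 points on the left and 10 of 10 in the middle and right panels lie below 0, against 49.4%, 52.9% and 53.2% of all genes. Scaling to the endothelial markers puts Lama1 and Lamb1 on the left, every gene but Lama4 in the middle and every gene but Nid2 on the right above 0. With that scaling 28.9%, 6.25% and 7.36% of all genes are below 0 in these panels.

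Shares within the alpha class do not depend on how the libraries are scaled. Per length, Lama5 made up 57.1% (95% interval 56.3 to 57.9) of the 4 alpha chains in the Cx43-deleted library, 56.1% (54.9 to 57.3) in WT C57BL6-BALB/c vessels and 57.7% (56.7 to 58.7) in WT C57BL6. The Lama4 share was lowest in the Cx43-deleted library, at 20.1% (19.4 to 20.9), against 23.4% (22.2 to 24.6) in WT C57BL6-BALB/c vessels and 25.3% (24.4 to 26.3) in WT C57BL6. The Lama1 share was highest there, at 14.6% (14.1 to 15.2) in the Cx43-deleted library, 12.9% (12.1 to 13.7) in WT C57BL6-BALB/c vessels and 10.6% (10.1 to 11.2) in WT C57BL6. The Lama2 share was 8.15% (7.72 to 8.59) in the Cx43-deleted library and 7.66% (7.06 to 8.30) in WT C57BL6-BALB/c, whose intervals overlap, and 6.36% (5.92 to 6.83) in WT C57BL6. These intervals come from the reads of a chain against those of the rest of its class, rescaled by length.

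**Figure D3:**
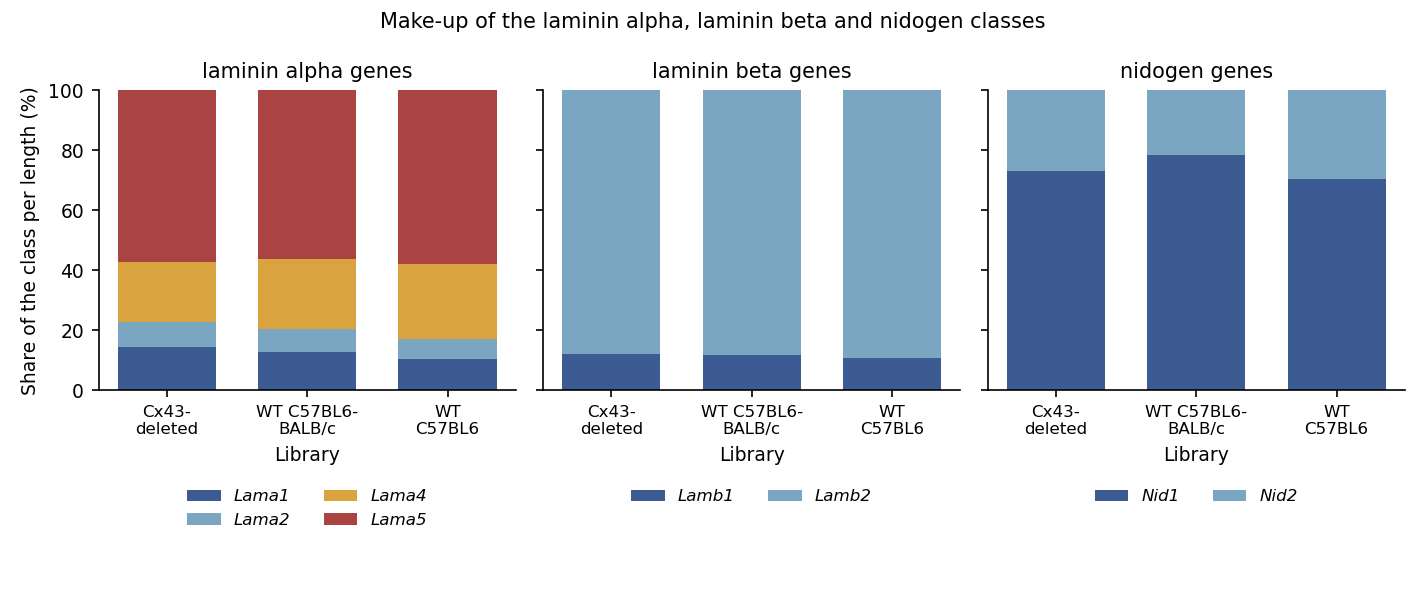
Share (%) of each gene in the summed per-length level of its class, for the laminin alpha, laminin beta and nidogen genes, in the Cx43-deleted (left bar), WT C57BL6-BALB/c (middle bar) and WT C57BL6 (right bar) libraries. Lama5 and Lamb2 hold most of their class in each library, and the Lama4 part is thinnest in the Cx43-deleted library, at 20.1%.

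Lamb2 (ENSMUSG00000052911, chr9:108479736-108490530, plus strand), which encodes the beta 2 chain of vascular and synaptic laminins, had 17734 reads in Cx43-deleted vessels, 7789 in WT C57BL6-BALB/c vessels and 11216 in WT C57BL6. Its level was 331 CPM in Cx43-deleted vessels, 367 in WT C57BL6-BALB/c vessels and 441 in WT C57BL6. It was 1.11-fold (1.08 to 1.14) lower than in WT C57BL6-BALB/c and 1.34-fold (1.30 to 1.37) lower than in WT C57BL6. Lamb1 (ENSMUSG00000002900, chr12:31265234-31329644, plus strand), the beta 1 chain gene, had 2548 reads in Cx43-deleted vessels, 1103 in WT C57BL6-BALB/c vessels and 1402 in WT C57BL6, and a level of 47.5 CPM in Cx43-deleted vessels, 52.0 in WT C57BL6-BALB/c vessels and 55.2 in WT C57BL6. It was 1.10-fold (1.02 to 1.18) lower than in WT C57BL6-BALB/c and 1.16-fold (1.09 to 1.24) lower than in WT C57BL6. Both beta genes had the Cx43-deleted library lowest and WT C57BL6 highest, but scaled to the endothelial markers the log2 ratios to WT C57BL6-BALB/c were −0.013 for Lamb2 and 0.0078 for Lamb1, and the log2 ratios to WT C57BL6 were 0.40 for Lamb2 and 0.59 for Lamb1. Lamb1 held 12.1% (11.7 to 12.6) of the beta class per length in Cx43-deleted vessels, 11.95% (11.3 to 12.6) in WT C57BL6-BALB/c vessels and 10.7% (10.2 to 11.2) in WT C57BL6.

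Lamc1 (ENSMUSG00000026478, chr1:153218922-153332786, minus strand), the gamma 1 gene whose exon 14 holds the nidogen-binding site, had 8636 reads in Cx43-deleted vessels, 4423 in WT C57BL6-BALB/c vessels and 5349 in WT C57BL6. Its level was 161 CPM in Cx43-deleted vessels, 209 in WT C57BL6-BALB/c vessels and 211 in WT C57BL6. With TMM scaling the WT libraries lay close together and the Cx43-deleted library below them. It was 1.30-fold (1.25 to 1.34) lower than WT C57BL6-BALB/c and 1.31-fold (1.26 to 1.35) lower than WT C57BL6, whereas the fold between the WT libraries had an interval that spanned 1, at 1.01 lower (0.970 to 1.05). With TMM scaling Lamc1 differed least of the 10 members between the WT libraries and had the second lowest log2 ratio to WT C57BL6-BALB/c, −0.37. Scaled to the endothelial markers, Lamc1 was lower than WT C57BL6-BALB/c, by a log2 ratio of −0.23, and higher than WT C57BL6, by 0.43. With that scaling it differed most of the 10 members between the WT libraries, at a log2 ratio of 0.66.

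The nidogens differed from each other. Nid1 (ENSMUSG00000005397, chr13:13437551-13512269, plus strand), the main linker between laminin gamma 1 and type IV collagen, had 3982 reads in Cx43-deleted vessels, 1990 in WT C57BL6-BALB/c vessels and 2832 in WT C57BL6. Its level was 74.2 CPM in Cx43-deleted vessels, 93.8 in WT C57BL6-BALB/c vessels and 111 in WT C57BL6. It was 1.26-fold (1.20 to 1.33) lower than in WT C57BL6-BALB/c and 1.502-fold (1.43 to 1.58) lower than in WT C57BL6; scaled to the endothelial markers, the log2 ratios were −0.20 to WT C57BL6-BALB/c and 0.23 to WT C57BL6. Nid2 (ENSMUSG00000021806, chr14:19751265-19811787, plus strand), its homologue in endothelial basement membranes, had 1210 reads in Cx43-deleted vessels, 453 in WT C57BL6-BALB/c vessels and 981 in WT C57BL6, and a level of 22.6 CPM in Cx43-deleted vessels, 21.4 in WT C57BL6-BALB/c vessels and 38.6 in WT C57BL6. With TMM scaling Nid2 was the member that did not lie below both WT libraries. Its interval against WT C57BL6-BALB/c spanned 1, at 1.06-fold higher (0.947 to 1.18), and it was 1.71-fold (1.57 to 1.86) lower than WT C57BL6. Scaled to the endothelial markers, its log2 ratios were 0.21 to WT C57BL6-BALB/c and 0.039 to WT C57BL6. Between the WT libraries Nid2 had the lowest log2 ratio of the members, −0.84, with WT C57BL6-BALB/c 1.81-fold (1.62 to 2.02) below WT C57BL6. Nid2 held 27.0% (25.7 to 28.3) of the nidogen class per length in Cx43-deleted vessels, 21.7% (19.95 to 23.5) in WT C57BL6-BALB/c vessels and 29.6% (28.1 to 31.2) in WT C57BL6. Of its exon bases 8.45% overlap Rtraf, and since the libraries do not keep the strand, reads there cannot be assigned to 1 gene. The overlaps were 3.86% for Lama2, 2.06% for Nid1 and 0% for the other members.

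Hspg2 (ENSMUSG00000028763, chr4:137468769-137570630, plus strand), perlecan, had 7757 reads on its main transcript in Cx43-deleted vessels, 3526 in WT C57BL6-BALB/c vessels and 5993 in WT C57BL6. The level of the gene was 172 CPM in Cx43-deleted vessels, 196 in WT C57BL6-BALB/c vessels and 284 in WT C57BL6. It was 1.15-fold (1.10 to 1.20) lower than in WT C57BL6-BALB/c and 1.63-fold (1.58 to 1.69) lower than in WT C57BL6, close to the folds of Lama5. The log2 ratio of levels to WT C57BL6-BALB/c was −0.19 for Hspg2 and −0.20 for Lama5, and scaled to the endothelial markers −0.048 and −0.064. The log2 ratio to WT C57BL6 was −0.72 for Hspg2 and −0.70 for Lama5, and with that scaling both turned positive, at 0.090 and 0.12. A processed transcript of 820 bases had 1466 reads in Cx43-deleted vessels, 624 in WT C57BL6-BALB/c vessels and 1229 in WT C57BL6. It was 1.77-fold (1.64 to 1.91) lower than WT C57BL6, while its interval against WT C57BL6-BALB/c spanned 1 (0.979 to 1.18). As for Lama5, its reads may also have been counted on the main transcript, and so more than once in the level of the gene.

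Set by comparison, 9 of 10 members were lower in the Cx43-deleted library than in WT C57BL6-BALB/c, against 49.4% of all genes; scaled to the endothelial markers, 7 of 10 were lower, against 28.9% of all genes. Against WT C57BL6, 10 of 10 were lower, against 52.9% of all genes, and scaled to the endothelial markers 1 of 10, against 6.25% of all genes. The members 1.5-fold or more below WT C57BL6 were Lama4, Lama5, Nid2 and Hspg2, 4 of 10 against 12.1% of all genes, with Nid1 just short of that size at a log2 ratio of −0.58 (levels with a pseudocount of 0.5). Against WT C57BL6-BALB/c 0 of 10 were lower by that size, where 4.06% of all genes were. These counts by size are with TMM scaling. Scaled to the endothelial markers, none of the 4 was 1.5-fold below WT C57BL6. The log2 ratios were then −0.15 for Lama4, 0.12 for Lama5, 0.039 for Nid2 and 0.090 for Hspg2. Between the WT libraries, without the deletion and with TMM scaling, 10 of 10 members were lower in WT C57BL6-BALB/c than in WT C57BL6, against 53.2% of all genes. The median log2 ratio was −0.26, and Nid2 was the 1 member at 1.5-fold, against 9.02%. The counting intervals lay below 1 for 6 members and spanned 1 for Lama1, Lama2, Lamb1 and Lamc1. Scaled to the endothelial markers, the median was 0.42 and 1 of 10 was lower, against 7.36% of all genes. With TMM scaling WT C57BL6 was the highest library for 10 of 10 members, and for 43.8% of all genes. The comparisons with the Cx43-deleted library share that library, and each WT library also enters the comparison of the WT libraries.

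Markers of the vessel cells also differed between the libraries, not always in the direction of the members, and their part in the result was not tested. Of 16 endothelial markers, 10 were lower in the Cx43-deleted library than in WT C57BL6-BALB/c and 15 lower than in WT C57BL6, with median log2 ratios of −0.14 and −0.82 in these comparisons. Between the WT libraries 16 were lower in WT C57BL6-BALB/c, with a median of −0.70. Their summed level was 9991 CPM in Cx43-deleted vessels, 9560 in WT C57BL6-BALB/c vessels and 15408 in WT C57BL6. Slc2a1 weighs on that sum and went against the medians to both WT libraries, at 2828 CPM in Cx43-deleted vessels, 1653 in WT C57BL6-BALB/c vessels and 2162 in WT C57BL6. The 12 pericyte markers had median log2 ratios of −0.02 to WT C57BL6-BALB/c, with 6 lower, and −0.57 to WT C57BL6, with 12 lower. They summed to 3440 CPM in Cx43-deleted vessels, 3462 in WT C57BL6-BALB/c vessels and 5474 in WT C57BL6. The 11 smooth muscle markers had medians of −0.82 to WT C57BL6-BALB/c, with 11 lower, and −0.44 to WT C57BL6, with 9 lower. Their sum was highest in WT C57BL6-BALB/c, at 2803 CPM in Cx43-deleted vessels, 4509 in WT C57BL6-BALB/c vessels and 3432 in WT C57BL6. For the 11 astrocyte markers the medians were −0.14 to WT C57BL6-BALB/c, with 7 lower, and −0.26 to WT C57BL6, with 9 lower, and the sum 2950 CPM in Cx43-deleted vessels, 3181 in WT C57BL6-BALB/c vessels and 3423 in WT C57BL6. For the 11 fibroblast markers they were −0.07 to WT C57BL6-BALB/c, with 8 lower, and −0.41 to WT C57BL6, with 10 lower, and the sum 3587 CPM in Cx43-deleted vessels, 3614 in WT C57BL6-BALB/c vessels and 4834 in WT C57BL6. Most of that fibroblast sum was Igf2, at 2932 CPM in Cx43-deleted vessels, 2909 in WT C57BL6-BALB/c vessels and 4003 in WT C57BL6. For WT C57BL6-BALB/c over WT C57BL6, the medians were −0.65 for pericyte, −0.11 for astrocyte and −0.23 for fibroblast markers. The smooth muscle markers went the other way, with a median of 0.45 and 0 of 11 lower, where the members' median was −0.26. None of these markers was at 0 reads in any of the 3 libraries, so the vessel, mural, astrocyte and fibroblast markers were all detected.

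Other cell types were present as well. The 8 choroid plexus and ependyma markers summed to 4671 CPM in Cx43-deleted vessels, 3593 in WT C57BL6-BALB/c vessels and 8834 in WT C57BL6. Most of this was Ttr, at 3194 CPM in Cx43-deleted vessels, 2311 in WT C57BL6-BALB/c vessels and 6204 in WT C57BL6. Choroid plexus has an epithelial basement membrane of its own; the medians of its markers were 0.30 to WT C57BL6-BALB/c, with 1 of 8 lower, and −0.83 to WT C57BL6, with 8 of 8 lower. The 8 microglia markers summed to 319 CPM in Cx43-deleted vessels, 303 in WT C57BL6-BALB/c vessels and 458 in WT C57BL6, with medians of 0.02 to WT C57BL6-BALB/c (3 of 8 lower) and −0.48 to WT C57BL6 (8 of 8 lower). The 9 neuron markers summed to 3182 CPM in Cx43-deleted vessels, 3435 in WT C57BL6-BALB/c vessels and 2873 in WT C57BL6, with medians of −0.16 to WT C57BL6-BALB/c (7 of 9 lower) and 0.21 to WT C57BL6 (4 of 9 lower). The 8 oligodendrocyte markers summed to 13360 CPM in Cx43-deleted vessels, 13831 in WT C57BL6-BALB/c vessels and 17243 in WT C57BL6, with medians of −0.05 to WT C57BL6-BALB/c (5 of 8 lower) and −0.27 to WT C57BL6 (7 of 8 lower). Most of the oligodendrocyte sum was Mbp, at 11585 CPM in Cx43-deleted vessels, 12015 in WT C57BL6-BALB/c vessels and 15382 in WT C57BL6. Of the markers of these other cell types too, 0 were at 0 reads.

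**Figure D4:**
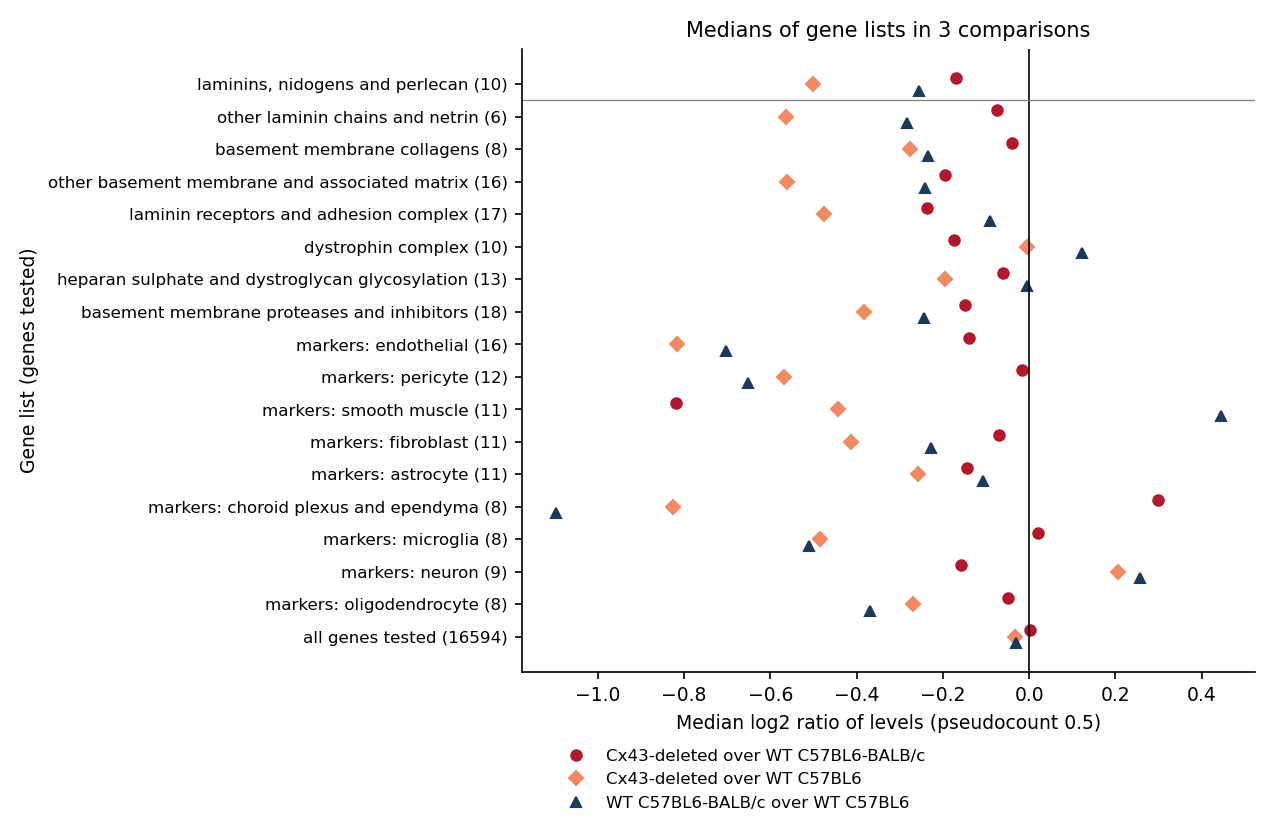
Median log2 ratio of levels (pseudocount 0.5) for the members, the other basement membrane lists, the cell type markers and all genes tested, with the number of genes tested in brackets; circles are Cx43-deleted over WT C57BL6-BALB/c, diamonds Cx43-deleted over WT C57BL6 and triangles WT C57BL6-BALB/c over WT C57BL6. With TMM scaling the members lie at −0.17 (circle), −0.50 (diamond) and −0.26 (triangle); scaling to the endothelial markers moves them to −0.03, 0.31 and 0.42, and the medians of all genes to 0.14, 0.74 and 0.61.

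The other basement membrane genes varied in direction. For this and the later lists, the counts under and over both are with TMM scaling unless stated. With it 35.6% of all genes were under both WT libraries and 33.2% over both. Of the 6 remaining laminin chains and netrins, 4 were under both WT libraries and 1 over both; the median log2 ratios were −0.07 to WT C57BL6-BALB/c and −0.56 to WT C57BL6, and the medians of the lists that follow are given for the same comparisons. Ntn4, a laminin-related netrin that binds laminin gamma chains, was at 69.5 CPM in Cx43-deleted vessels, 117 in WT C57BL6-BALB/c vessels and 109 in WT C57BL6, with log2 ratios of −0.75 to WT C57BL6-BALB/c and −0.64 to WT C57BL6. Of 8 basement membrane collagen genes, 4 were under both and 1 over both; the medians were −0.04 and −0.28. The most abundant of them encode the chains of the common type IV collagen. Col4a2 was higher than in both WT libraries with TMM scaling, at 711 CPM in Cx43-deleted vessels, 646 in WT C57BL6-BALB/c vessels and 554 in WT C57BL6. Col4a1 was at 493 CPM in Cx43-deleted vessels, 485 in WT C57BL6-BALB/c vessels and 564 in WT C57BL6. Of 16 other matrix genes, 9 were under both and 2 over both; the medians were −0.20 and −0.56. Npnt, the integrin ligand nephronectin, was at 136 CPM in Cx43-deleted vessels, 269 in WT C57BL6-BALB/c vessels and 217 in WT C57BL6. Fbln2, fibulin 2, was at 168 CPM in Cx43-deleted vessels, 273 in WT C57BL6-BALB/c vessels and 283 in WT C57BL6. Bgn, the proteoglycan biglycan, was at 305 CPM in Cx43-deleted vessels, 472 in WT C57BL6-BALB/c vessels and 544 in WT C57BL6. Scaled to the endothelial markers, the genes below both numbered 1 of 6, 0 of 8 and 3 of 16 in these lists, where 4.73% of all genes were below both.

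Of 17 measured laminin receptors and adhesion genes, 12 were under both WT libraries and 1 over both; the medians were −0.24 and −0.47 (1 below both when scaled to the endothelial markers). Mcam, a laminin-binding adhesion molecule of vessel cells, was at 311 CPM in Cx43-deleted vessels, 582 in WT C57BL6-BALB/c vessels and 572 in WT C57BL6, with log2 ratios of −0.90 to WT C57BL6-BALB/c and −0.88 to WT C57BL6. Of 10 dystrophin complex genes, which link dystroglycan to the cytoskeleton, 4 were under both and 2 over both; the medians were −0.18 and −0.0036. Utrn, utrophin, was at 323 CPM in Cx43-deleted vessels, 393 in WT C57BL6-BALB/c vessels and 506 in WT C57BL6. Dmd, dystrophin, was at 282 CPM in Cx43-deleted vessels, 311 in WT C57BL6-BALB/c vessels and 291 in WT C57BL6. Of 13 measured genes of heparan sulphate synthesis and dystroglycan glycosylation, 6 were under both and 3 over both; the medians were −0.06 and −0.19. Pomgnt1, a glycosyltransferase of dystroglycan, was at 511 CPM in Cx43-deleted vessels, 501 in WT C57BL6-BALB/c vessels and 492 in WT C57BL6. Extl3, a glycosyltransferase of heparan sulphate synthesis, was at 229 CPM in Cx43-deleted vessels, 217 in WT C57BL6-BALB/c vessels and 283 in WT C57BL6. In these 2 lists, the dystrophin complex and the glycosylation genes, the shares under both were 40.0% and 46.2%, against 35.6% of all genes. The number below both was 0 in each when scaled to the endothelial markers.

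Of 18 measured proteases and inhibitors that act on basement membranes, 11 were under both WT libraries and 2 over both; the medians were −0.15 and −0.38 (3 below both when scaled to the endothelial markers). Plau, urokinase, was at 5.11 CPM in Cx43-deleted vessels, 20.3 in WT C57BL6-BALB/c vessels and 9.96 in WT C57BL6, with log2 ratios of −1.89 to WT C57BL6-BALB/c and −0.90 to WT C57BL6. Mmp9, gelatinase B, was at 9.84 CPM in Cx43-deleted vessels, 6.37 in WT C57BL6-BALB/c vessels and 5.63 in WT C57BL6, with log2 ratios of 0.59 to WT C57BL6-BALB/c and 0.75 to WT C57BL6.

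Among 173 genes of these lists and the marker lists with a level of 5 or more in every library, the 3 whose log2 ratios to WT C57BL6-BALB/c and WT C57BL6 lay nearest to the members' medians were Lama3, Smoc1 and Parva, at distances of 0.02, 0.04 and 0.07 over 3 libraries. Lama3, a further laminin alpha chain, was at 37.4 CPM in Cx43-deleted vessels, 41.4 in WT C57BL6-BALB/c vessels and 53.1 in WT C57BL6. Smoc1, a calcium-binding matrix protein, was at 74.3 CPM in Cx43-deleted vessels, 85.6 in WT C57BL6-BALB/c vessels and 107 in WT C57BL6. Parva, the gene of the integrin-linked protein alpha-parvin, was at 105 CPM in Cx43-deleted vessels, 124 in WT C57BL6-BALB/c vessels and 146 in WT C57BL6.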

How the data were processed

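PolyA+ RNA of 3 brain vessel libraries was sequenced, with no record here of how many animals each held. The authors deposited, per the file headers, a whole-number count for each of 82813 Ensembl transcripts, the count as a fraction of 1 library total, the transcript length and the bases without a read. The submitters' processing notes name CASAVA 1.8.2, Bowtie and mm10, and no source used here gives the counting program. Counts sum to 2.55 times the total in Cx43-deleted vessels, 2.53 times in WT C57BL6-BALB/c vessels and 2.45 times in WT C57BL6, so a read counts on several transcripts, and the kit (TruSeq RNA v2, per the labels) keeps no strand.

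Identifiers were matched to GENCODE M21 (GRCm38): 69379 matched (83.8%), and 217 on another chromosome were left out. Coordinates of the deposited tables were not used. Gene sums were scaled by library totals with TMM factors (0.976 in Cx43-deleted vessels, 1.00 in WT C57BL6-BALB/c vessels and 1.02 in WT C57BL6; edgeR 4.0.16, R 4.3.3), and log2 ratios used a pseudocount of 0.5, which understates ratios of low genes. A level of 1 is 53.6 counts in Cx43-deleted vessels, 21.2 in WT C57BL6-BALB/c vessels and 25.4 in WT C57BL6. Intervals used scipy 1.17.1 in Python 3.11.15. Median-of-ratios factors came from DESeq2 1.42.0. The main transcript is the most abundant one. The members and lists were chosen with earlier results of these data known. Named were all members and, in each other list, up to 3 genes 1.5-fold or more from both WT libraries or else the 2 of highest level, plus the 3 nearest to the members' medians. Of the listed genes, Itga2 and Mmp3 did not reach a level of 1 and Ndst1 was not analysed here. The ratio and interval steps were tested on simulated Poisson counts. Alternatives were other scalings, pseudocounts of 0.1 and 1, other level filters and other transcripts.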

Additional observations from a re-analysis of the deposited data

How the results depend on the processing

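No paired analysis was possible because each group has 1 library, and no library could be left out. The count of members below both WT libraries was 9 under scaling by library total, median-of-ratios factors, pseudocounts of 0.1 and 1 and either choice of a gene's transcript. The pseudocount could not change this count, since it cannot alter which level is higher. Both transcript choices took the same transcript for each member, and only Lama5 and Hspg2 had more than 1 counted. The members' medians ranged over those settings from −0.21 to −0.17 (Cx43-deleted over WT C57BL6-BALB/c), −0.57 to −0.47 (over WT C57BL6) and −0.29 to −0.23 (WT C57BL6-BALB/c over WT C57BL6). Between the WT libraries Lamc1 changed sign, to 0.01, with median-of-ratios factors. Scaling each WT library so that the median of 16 endothelial markers equals that of the Cx43-deleted library moved the median of all genes to 0.14, 0.74 and 0.61, left 1 member below both and gave medians of −0.030, 0.31 and 0.42; the share of all genes below both became 4.73%, and 0.404% at 1.5-fold. Under it 9 members, all but Lama4, turned from lower to higher than WT C57BL6, since the endothelial markers differ by −0.82 between these libraries. Most genes were then higher than WT C57BL6, with 6.25% of all genes lower. The members' log2 ratios were 0.63 (Lama1), 0.59 (Lamb1), 0.52 (Lama2), 0.43 (Lamc1), 0.40 (Lamb2), 0.23 (Nid1), 0.12 (Lama5), 0.090 (Hspg2) and 0.039 (Nid2). Without a filter on low levels, 1.29% of genes were 1.5-fold or more below both. Shares within a class did not depend on the scaling. The counting intervals against WT C57BL6-BALB/c spanned 1 for Lama1 and Nid2, and the difference between animals could not be measured.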
